A study of Mus musculus with 12 samples.

Results

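The SLC25 family is the set of carriers that move metabolites across the inner membrane of mitochondria, and its genes were followed here in mouse liver RNA from 4 groups. Members were the genes named Slc25a followed by a number that had a mean raw read count of at least 10 over the 6 libraries of high-fat-diet liver with and without vehicle injection. Of 26015 genes measured in those libraries 47 had such a name, and 41 of them passed the count minimum. The count used for the choice is the overall level in these 2 groups. Levels are therefore given as a description, and no test is drawn from them. Just inside the minimum stood Slc25a35, Slc25a27 and Slc25a53, with mean raw counts of 11.8, 20.2 and 29.7. Just outside stood Slc25a2 with 9.83, the pseudogene Slc25a5-ps with 3.33 and Slc25a18 with 1.83. Slc25a43, Slc25a31 and Slc25a41 lay lower still, at 1.5, 1.17 and 0.167.

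Liver of C57BL/6N mice was sequenced in 4 groups of 3 libraries. The diets began at 6 weeks of age and ran for 15 weeks. Chow (replicates 8, 17 and 19) was regular chow without treatment, and HFD (4, 30 and 38) was the high-fat diet without treatment. HFD Vehicle (15, 23 and 55) was the high-fat diet with injected 30% DMSO in corn oil, and HFD PCN (5, 11 and 27) was the high-fat diet with 50 mg/kg pregnenolone 16α-carbonitrile (PCN), each given into the peritoneum daily for 4 days. This synthetic steroid is a ligand of the pregnane X receptor of rodents, which switches on genes of drug metabolism. The labels give no genetic change, sex or age at collection, and they do not say that each library is a separate animal, so the p-values measure only the spread between these libraries.

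Most SLC25 proteins share a repeated membrane fold and swap a substrate on the matrix side for another on the cytosolic side. In liver they link pathways that are split between compartments. Citrate leaves for fatty acid synthesis, acylcarnitines enter for oxidation, ornithine enters for the urea cycle, and aspartate leaves for the malate-aspartate shuttle and gluconeogenesis. Other members carry phosphate and ADP/ATP for oxidative phosphorylation, or iron, coenzyme A, NAD, folate and glutathione. A few sit in other membranes or have no settled substrate.

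Only the comparison of HFD Vehicle with HFD had values for every gene. The other 5 deposited tables listed genes with a deposited adjusted p under 0.05, so Chow counts were at hand for 9 members and PCN counts for 11, with 9 members read in all 12 libraries. A member's Chow or PCN counts were thus at hand only if a comparison with that group called it. Ratios and overlaps without a call that use such counts are description only. Total counts of the 6 complete libraries ran from 7466378 (HFD replicate 38) to 38161486 (HFD replicate 4). Values are read counts divided by the authors' size factors, called normalized counts. Group values are means ± SD with n = 3, and a fold is the ratio of group means. "Rose" and "fell" mark a call, an adjusted p under 0.05, in the authors' deposited DESeq2 tables. A second test, edgeR's quasi-likelihood test on the same counts, is given beside the calls of members, and for other genes as a count or range for each gene list. In bulk liver, fewer cells of a type and less RNA per cell cannot be told apart. Hepatocyte markers were present at high levels (summed normalized counts of 6 genes, 1162500 to 1897200), and adipose and muscle markers summed to at most 4.05 and 1.01. Vehicle replicate 55 was the lowest of its group in 27 of the 41 members, and HFD replicate 38 in 25. Replicate 55 also had the lowest hepatocyte marker sum, which was mostly Alb (763600 of 1162500). Alb and Ttr were lowest there, while Cps1, Cyp2e1, Serpina1a and Apoa1 were lowest in HFD replicate 38. The part of these libraries in the results was tested only by leaving each out.

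Deposited calls fell on 11 of the 41 members, 24 calls in all over 5 comparisons. The other 30 members were called in none. In HFD against Chow 3 members rose and 0 fell, or 7.32% of members. That table called 4.85% of all genes tested, 2.81% higher and 2.05% lower, and 8.78% of those with a mean count from 10 up. In PCN against vehicle, the comparison of 2 injected groups, 1 rose and 2 fell (7.32%), where 1.71% of all genes were called, 1.07% higher and 0.641% lower, and 3.09% of those from 10 up. In PCN against HFD 1 rose and 5 fell (14.6%), against 3.15% of all genes, 1.9% higher and 1.26% lower, and 5.65% of those from 10 up. In vehicle against Chow 1 rose and 2 fell (7.32%), against 3.1% of all genes, 1.72% higher and 1.38% lower, and 5.66% of those from 10 up. In PCN against Chow 1 rose and 8 fell (22.0%), against 8.1% of all genes, 4.43% higher and 3.67% lower, and 14.2% of those from 10 up. In vehicle against HFD 0 of 41 were called, where 0.792% of all genes and 1.48% of those from 10 up were. These comparisons share libraries, so their calls are not independent of each other. The groups did not overlap in 23 of the 24 calls, and the exception was Slc25a47 in PCN against Chow. The calls were made on the same counts, so this adds no support to them. The share among all called genes was not computed. Members were chosen by level, and no test of the family as a set was made.

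The edgeR test passed fewer calls. It passed 4 of the 9 called members in PCN against Chow (edgeR passes were 3.08% of all genes tested). It passed 1 of 6 in PCN against HFD (0.53%) and 1 of 3 in vehicle against Chow (0.325%). In HFD against Chow it passed 0 of 3 (0.4%) and in PCN against vehicle 0 of 3 (0.058%). In each of these, 3 of 3 had an unadjusted edgeR p under 0.05. The percentages are of all genes the authors tested, but edgeR was run only on the called genes. They are therefore no background for the members. Among the called genes edgeR passed 774 of 2032 in PCN against Chow and 136 of 809 in PCN against HFD. It passed 83 of 790 in vehicle against Chow, 101 of 1226 in HFD against Chow and 15 of 442 in PCN against vehicle. When any 1 library was left out, no called fold moved by more than 1.5 times and none changed direction.

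**Figure D1:**
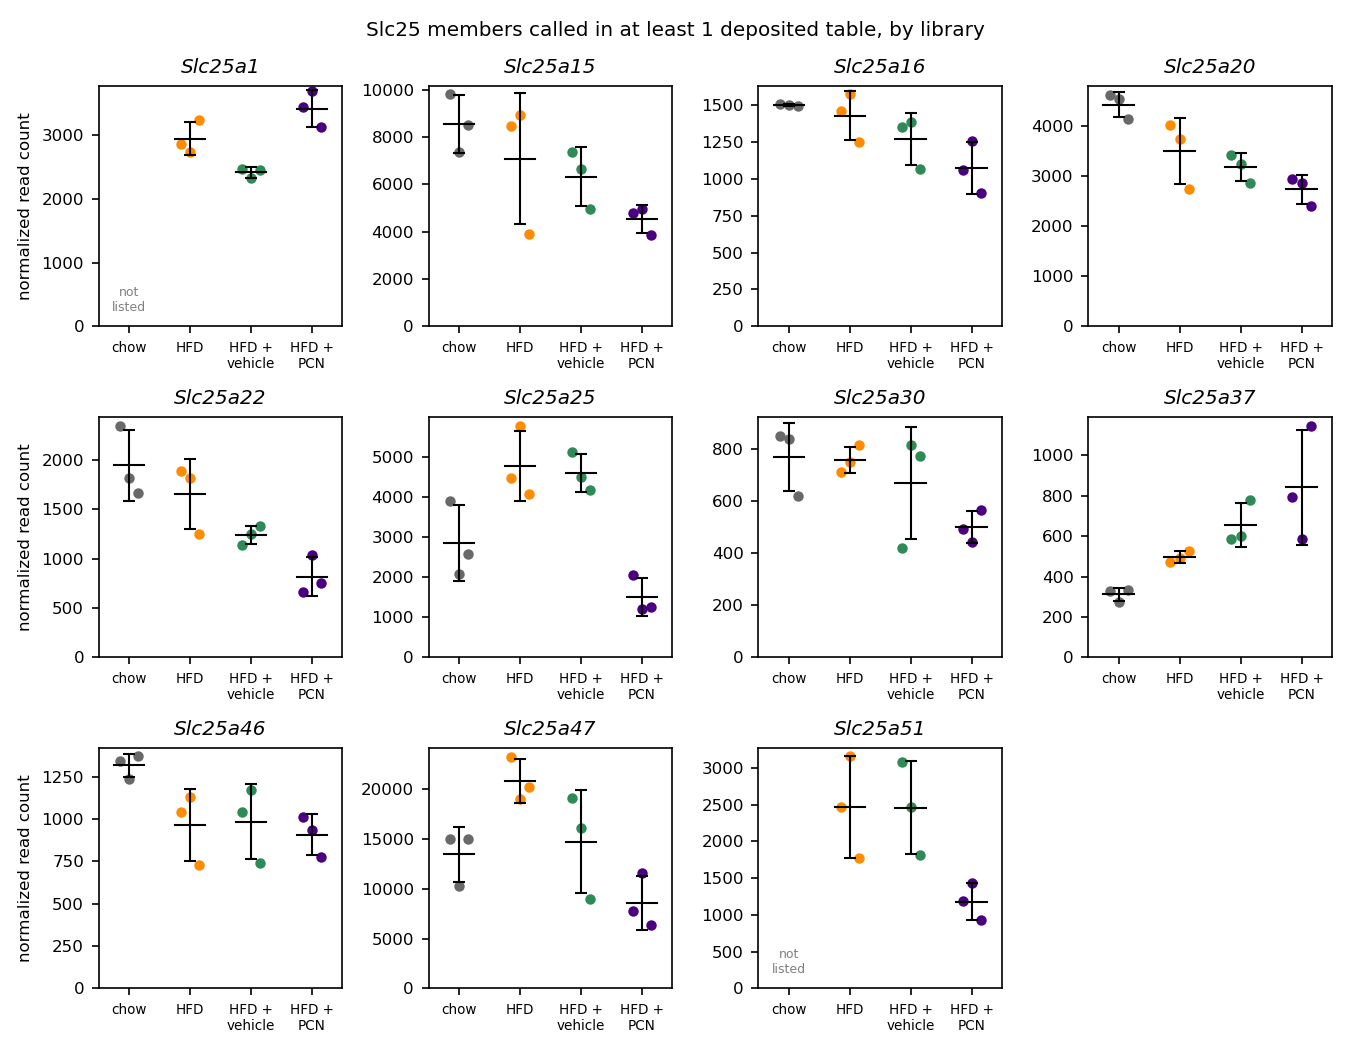
Normalized read counts (linear axes from 0) of the 11 members called in at least 1 deposited table, 1 point per library, with the group mean (horizontal bar) and SD over 3 libraries (error bar). Slc25a25 stands at 1216 to 2055 in the 3 PCN libraries and at 4079 to 5752 in the 6 other high-fat-diet libraries, while Slc25a37 is lowest in chow.

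Carriers of phosphate and nucleotides include the member with the largest PCN fold of the family in these tables. Slc25a25 (ENSMUSG00000026819, chromosome 2, positions 32414487 to 32451445, GRCm38) encodes a calcium-regulated carrier that exchanges ATP-Mg for phosphate and so sets the adenine nucleotide pool of the matrix. Its normalized counts were 3900, 2076.0 and 2577 in Chow replicates 8, 17 and 19. They were 4467, 5752 and 4079 in HFD replicates 4, 30 and 38, and 5106, 4484 and 4171 in vehicle replicates 15, 23 and 55. PCN replicates 5, 11 and 27 had 2055.0, 1216 and 1257, each below every other library. With PCN it fell 3.04-fold from vehicle (1509 ± 473 against 4587 ± 476) and 3.16-fold from HFD (4766 ± 876). Adjusted p was 1.37e-08 and 3.5e-09 in the authors' deposited tables and 0.0862 and 0.0398 in edgeR. The edgeR value for PCN against vehicle ranged from 0.0114 to 0.387 over the alternatives, and that for PCN against HFD from 0.0112 to 0.159. Both low ends came from TMM scaling factors computed over the listed genes alone. Those genes are all called, and the factors moved the log2 ratios by -0.515 and -0.354. Leaving out 1 library gave folds of 2.77 to 3.71 and 2.83 to 3.85. With the diet alone it rose 1.67-fold over Chow (2851 ± 942, adjusted p = 0.03929 in the authors' deposited table and 0.38 in edgeR). This diet fold ranged from 1.47 to 2.05 with 1 library left out. PCN against Chow was called as 1.89-fold lower (adjusted p = 0.005622 in the authors' deposited table and 0.169 in edgeR, with a range of 0.104 to 0.596), and that fold ranged from 1.54 to 2.31 with 1 library left out. The vehicle group was 1.61-fold above Chow without overlap and was not called. Between vehicle and HFD the means were 1.04-fold apart and the groups overlapped. About 4.82% of its exon length overlaps Naif1 on the opposite strand, and the strand setting of the counting is not known here.

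The sequences before the starts of Slc25a25, Slc25a47 and Slc25a1 are shown because Slc25a25 and Slc25a47 had the largest falls against HFD among the called members, and Slc25a1 alone rose between vehicle and PCN. Each is 250 bases up to the RefSeq start, on the gene's strand, from GRCm38.p6. Capitals mark matches, on either strand, to CCAAT (read as ATTGG on the other strand), CACGTG (the E-box) or TGACGTCA (the cyclic AMP response element). Slc25a25 has 3 RefSeq starts, of which the outermost and the innermost are given. The RefSeq start of Slc25a47 and the innermost start of Slc25a25 lie inside the gene spans of the deposited tables.
Slc25a25, outermost start, chr2:32451471-32451720, minus strand: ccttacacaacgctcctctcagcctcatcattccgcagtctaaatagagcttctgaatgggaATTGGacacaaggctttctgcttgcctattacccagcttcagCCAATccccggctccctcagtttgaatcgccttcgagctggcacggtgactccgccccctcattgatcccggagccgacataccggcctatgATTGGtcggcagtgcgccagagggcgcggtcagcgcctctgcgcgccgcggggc
Slc25a25, innermost start, chr2:32424067-32424316, minus strand: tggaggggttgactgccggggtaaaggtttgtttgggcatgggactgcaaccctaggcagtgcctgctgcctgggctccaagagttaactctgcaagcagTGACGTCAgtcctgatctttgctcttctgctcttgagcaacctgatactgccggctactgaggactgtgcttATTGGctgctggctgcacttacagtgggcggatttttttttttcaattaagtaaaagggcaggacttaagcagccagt
Slc25a47, chr12:108850879-108851128, plus strand: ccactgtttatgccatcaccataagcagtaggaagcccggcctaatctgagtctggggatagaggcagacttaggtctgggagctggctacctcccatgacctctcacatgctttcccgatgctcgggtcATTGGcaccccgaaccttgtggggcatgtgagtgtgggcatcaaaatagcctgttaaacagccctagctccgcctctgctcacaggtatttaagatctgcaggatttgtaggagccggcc
Slc25a1, chr16:17928220-17928469, minus strand: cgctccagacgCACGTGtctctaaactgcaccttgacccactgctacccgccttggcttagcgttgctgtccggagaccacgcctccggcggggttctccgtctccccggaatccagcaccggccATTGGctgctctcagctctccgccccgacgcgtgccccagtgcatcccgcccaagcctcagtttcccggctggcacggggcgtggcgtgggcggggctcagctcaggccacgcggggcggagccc
The innermost Slc25a25 window holds TGACGTCA 150 bases before the start, a motif found in 1.55% of 32851 windows of this length. CACGTG stands 239 bases before the Slc25a1 start (6.02% of windows), and CCAAT occurs in each of the 4 windows shown (33.8% of windows). Of the 32 members with a window, 18 hold CCAAT, 6 hold CACGTG and 2 hold TGACGTCA. None of the 32 holds TCACNCCAC (a sterol regulatory element form; 1.05% of windows), a direct repeat of AGGTCA spaced by 1 base (0.0335%) or a direct repeat of AGTTCA spaced by 4 (0.00913%), forms that nuclear receptors bind. A match is only a match of letters. Of the 11 called members 8 have a window, and Slc25a37 and Slc25a51 are among those without one.

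The other phosphate and nucleotide carriers were called in no table. Slc25a5, the main ADP/ATP carrier of liver mitochondria, had 8996, 8145 and 7904 normalized counts in HFD and 7507, 8637 and 5333 in vehicle libraries, and the groups overlapped. Its heart and muscle paralog Slc25a4 was at 80.5, 77.3 and 106 in HFD and 71.3, 95.0 and 39.4 with vehicle. How reads that match more than 1 of Slc25a4, Slc25a5 and the pseudogene Slc25a5-ps were counted is not given in the sources used here, so the split between them is uncertain. Slc25a3, the phosphate carrier, stood at 3795 ± 384 in HFD and 3534 ± 383 with vehicle. Slc25a23, a relative of Slc25a25 with the same kind of substrate, had 1735, 2193 and 1324 in HFD and 1792, 1941 and 2983 with vehicle, where replicate 55 was the highest. The third relative, Slc25a24, had 31.0 ± 13.2 and 24.4 ± 7.11. Slc25a17, a peroxisomal carrier of coenzyme A and nucleotide cofactors, and the pyrimidine nucleotide carriers Slc25a33 and Slc25a36 lay between 106.5 and 654 in group means. For these members a PCN or Chow value was not analysed here.

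Among carriers of di- and tricarboxylates Slc25a1 rose with PCN against vehicle and Slc25a22 fell in 3 comparisons. Slc25a1 (ENSMUSG00000003528, chromosome 16, positions 17925211 to 17928219) exports citrate, the source of cytosolic acetyl-CoA. It had 2856.5, 2742 and 3239 normalized counts in HFD replicates 4, 30 and 38. Vehicle replicates 15, 23 and 55 had 2469, 2324 and 2462, all below HFD, and PCN replicates 5, 11 and 27 had 3443, 3691 and 3122, all above vehicle. The PCN mean was 1.41-fold above vehicle (3419 ± 285 against 2418 ± 81.8; adjusted p = 0.04365 in the authors' deposited table and 0.272 in edgeR). PCN and HFD overlapped, with means 1.16-fold apart and no call. The direction depends on the scaling. TMM factors computed over the listed genes alone moved every PCN-to-vehicle log2 ratio by -0.515, after which the Slc25a1 ratio was 0.993, and they moved PCN-to-HFD ratios by -0.354. Those genes are the called ones, of which 276 were higher and 166 lower with PCN than with vehicle. The other PCN calls of the family had the same direction with either scaling.

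Slc25a22 (ENSMUSG00000019082, chromosome 7, positions 141429744 to 141437892) imports glutamate with a proton. Chow replicates 8, 17 and 19 had 2350.3, 1821 and 1667 normalized counts and HFD replicates 4, 30 and 38 had 1894, 1823 and 1252. Vehicle libraries had 1139, 1255 and 1327, and PCN libraries had 667, 1037 and 750.04, the lowest of the 4 groups and below every other library. It fell 1.57-fold in vehicle against Chow, 2.03-fold in PCN against HFD and 2.38-fold in PCN against Chow. In the authors' deposited tables adjusted p was 0.01049, 0.0007924 and 4.38e-08. In edgeR it was 0.159, 0.104 and 0.0224, and the last ranged from 0.0154 to 0.0905 over the alternatives. PCN and vehicle did not overlap either (1.52-fold), without a call.

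The remaining carboxylate and aspartate carriers were called in no table. Slc25a10, the dicarboxylate carrier that exchanges malate and succinate for phosphate, had 5663, 5966 and 5226.5 normalized counts in HFD and 4520.0, 4403.5 and 3898 with vehicle. The groups did not overlap, with vehicle 1.31-fold lower, and edgeR gave an adjusted p of 0.306. Slc25a13 (citrin), the aspartate-glutamate exchanger of liver, had 6926, 6964.5 and 4903 in HFD and 7324, 6041.5 and 4253 with vehicle, with 1 low library in each group. Slc25a12, its relative in brain and muscle, was at 354 ± 46.9 and 397 ± 52.0. Slc25a11, the oxoglutarate-malate exchanger, stood at 1351 ± 121 and 1253 ± 266, and Slc25a21, the oxoadipate carrier, at 232 ± 62.8 and 228 ± 50.0.

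In the amino acid group the called member was Slc25a15 (ENSMUSG00000031482, chromosome 8, positions 22375551 to 22398597), which exchanges ornithine for citrulline in the urea cycle. Its normalized counts were 9812, 7367 and 8509 in Chow and 8453, 8915.5 and 3902 in HFD, where replicate 38 was the low one. Vehicle libraries had 7372, 6669 and 4954.5, and PCN libraries had 4797, 4964 and 3863. PCN lay below Chow in every library, and all other pairs of groups overlapped. The fall of 1.89-fold in PCN against Chow had adjusted p = 1.2e-06 (authors' deposited table) and 0.0353 (edgeR), with a range of 0.0251 to 0.121 over the alternatives. Slc25a44, a carrier of branched-chain amino acids, had 1518, 1261 and 1340.0 in HFD and 1094, 921 and 869.7 with vehicle, 1.43-fold lower without overlap. It had the lowest adjusted p of the family in that comparison, 0.237 in edgeR and 0.1912 in the authors' deposited table. Slc25a29, which carries arginine and lysine, had 90.1, 81.5 and 40.7 in HFD and 115, 121 and 52.9 with vehicle, and the groups overlapped. The glycine carrier Slc25a38 stood at 289 ± 42.4 and 359 ± 73.7, and Slc25a48, reported elsewhere as a choline carrier, at 196 ± 91.6 and 227 ± 11.7.

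Of the carriers of carnitine esters and cofactors, Slc25a20, Slc25a51 and Slc25a16 were called, each lower in PCN livers. Slc25a20 (ENSMUSG00000032602, chromosome 9, positions 108662088 to 108684641) brings acylcarnitines to the matrix for fatty acid oxidation. Chow libraries had 4613, 4541 and 4137 normalized counts, all above the 4013, 3743 and 2748 of HFD, the 3432, 3238 and 2871 of vehicle and the 2941, 2858 and 2404 of PCN. It fell 1.39-fold in vehicle against Chow and 1.62-fold in PCN against Chow (adjusted p = 0.02211 and 2.69e-05 in the authors' deposited tables, 0.243 and 0.0388 in edgeR). The second edgeR value ranged from 0.0236 to 0.133. HFD was 1.26-fold below Chow without overlap and without a call. Chow counts of Slc25a20 were at hand only because injected groups were called below Chow, so this is description only.

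Slc25a51 (ENSMUSG00000045973, chromosome 4, positions 45395923 to 45408766) carries NAD into mitochondria. It had 2471, 3161 and 1779 normalized counts in HFD, 3086, 2472 and 1819 with vehicle and 1183, 1431 and 926 with PCN. The 3 PCN libraries were below all 6 others. It fell 2.08-fold from vehicle and 2.09-fold from HFD (1179.9 ± 252 against 2459 ± 634 and 2470.5 ± 691). Adjusted p was 0.003171 and 0.001079 in the authors' deposited tables and 0.216 and 0.128 in edgeR, with ranges of 0.0531 to 0.759 and 0.0463 to 0.445. The value of 0.0463 came from the TMM factors over the listed genes. Leaving out 1 library gave folds of 1.82 to 2.36 against vehicle and 1.8 to 2.39 against HFD. The highest values came without vehicle replicate 55 and without HFD replicate 38. Slc25a16 (ENSMUSG00000071253, chromosome 10, positions 62920633 to 62946498), linked to coenzyme A uptake, had 1511.5, 1503 and 1494 in Chow, 1460, 1579 and 1249.5 in HFD, 1356, 1388 and 1071 with vehicle and 1059.8, 1261 and 906 with PCN. It fell 1.40-fold in PCN against Chow (adjusted p = 0.0271 in the authors' deposited table and 0.129 in edgeR).

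Other cofactor carriers were called in no table. Slc25a39, a glutathione carrier, was among the 5 highest members per length, with 6919, 6334 and 5982.5 normalized counts in HFD and 6683, 6665 and 6202 with vehicle, a ratio of 1.02. Its relative Slc25a40 had 92.3 ± 10.1 and 73.4 ± 19.8. Slc25a32, which carries folate and FAD, had 1277, 1086.5 and 1109 in HFD and 1091, 1085 and 537 with vehicle. Vehicle replicate 55 was the low library there. Slc25a42, the coenzyme A carrier, and Slc25a26, which carries S-adenosylmethionine, had group means 1.02-fold and 1.03-fold apart.

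Of the iron carriers Slc25a37 was called in 4 tables, as Slc25a25 was. Slc25a37 (mitoferrin; ENSMUSG00000034248, chromosome 14, positions 69241848 to 69285112) delivers iron to mitochondria for heme and iron-sulfur clusters. Chow libraries had 327, 273 and 335 normalized counts, HFD libraries 472, 490.5 and 527, vehicle libraries 585, 599 and 780.4, and PCN libraries 796.5, 584 and 1147. Chow was below all others, and HFD was below vehicle and PCN in every library. It rose 1.59-fold in HFD, 2.10-fold in vehicle and 2.70-fold in PCN livers against Chow (312 ± 33.4), and 1.70-fold in PCN against HFD. In the authors' deposited tables adjusted p was 0.0005882, 4.24e-06, 6.47e-08 and 0.04921, and in edgeR it was 0.0859, 0.0463, 0.0239 and 0.325. Over the alternatives the edgeR values ranged from 0.0859 to 0.281, 0.0408 to 0.185, 0.0114 to 0.102 and 0.0865 to 1.0. Without vehicle replicate 55 vehicle was 1.90-fold above Chow. Vehicle was 1.32-fold above HFD (edgeR adjusted p = 0.359). PCN and vehicle overlapped.

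Markers of other cells were called in some of the same comparisons. Of 10 macrophage markers 6 rose in HFD against Chow, 0 in vehicle against Chow and 2 in PCN against Chow, and edgeR passed 0 of the 6 and 1 of the 2. Of all genes 2.81%, 1.72% and 4.43% rose in these 3 comparisons. Of 9 stellate and fibroblast markers the collagen genes Col1a1 (8.74-fold), Col1a2 (3.56-fold) and Col3a1 (5.49-fold) rose in HFD against Chow, and edgeR passed all 3 (adjusted p = 0.00734, 0.0312 and 0.0146). Col1a1 and Col1a2 fell 2.29-fold and 2.01-fold in PCN against HFD (edgeR 0.0476 and 0.149). In PCN against Chow 4 of the 9 rose, of which edgeR passed 2. The summed stellate markers were 9945 to 13110 in HFD and 5527 to 9788 in vehicle libraries. Of 6 endothelial markers Lyve1 and Cdh5 fell 2.38-fold and 1.73-fold in vehicle against HFD, Lyve1 rose and Kdr fell in HFD against Chow, and Lyve1 fell in PCN against HFD. Of 5 cholangiocyte markers Spp1 rose in HFD and vehicle livers against Chow, and Krt19 rose and Sox9 fell in PCN against Chow. The edgeR test passed none of these endothelial and cholangiocyte calls (adjusted p from 0.0902 to 0.184). None of 6 lymphocyte and granulocyte markers was called in any table. No marker counted in the 6 complete libraries was at 0 in all of them. Summed hemoglobin genes (Hba-a1, Hbb-bs, Hbb-bt) were 4400.3 to 5584 in HFD and 2777 to 3442 in vehicle libraries. Hbb-bs fell 1.69-fold with vehicle (adjusted p = 0.003365 in the authors' deposited table and 0.16 in edgeR). Slc25a37 was higher there without a call (adjusted p = 0.6975 in the authors' deposited table and 0.359 in edgeR). The part of these cells in the Slc25a37 values, and in those of the other members, was not tested. The paralog Slc25a28, expressed outside the red cell lineage, stood at 220.1 ± 49.5 in HFD and 235 ± 30.2 with vehicle. Of 11 heme and iron-sulfur synthesis genes Alas1, the first enzyme of heme synthesis, rose 1.46-fold in HFD and 1.89-fold in vehicle livers against Chow and fell 2.04-fold in PCN against vehicle. Uros rose in HFD and PCN livers against Chow, and Alad rose in PCN livers against Chow and HFD. The edgeR test passed none of these 7 calls (adjusted p from 0.0641 to 0.511). About 6.33% of the Slc25a37 exon length overlaps Gm31748 on the opposite strand.

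Among members without a settled substrate, Slc25a47 was the highest of the family. Slc25a47 (ENSMUSG00000048856, chromosome 12, positions 108836046 to 108856815) is a carrier whose expression is largely limited to liver. It took 20.9% to 26.2% of all member counts in HFD and 14.3% to 22.4% in vehicle libraries. Chow libraries had 15021, 10285 and 14994 normalized counts and HFD libraries 23253, 19023 and 20200. Vehicle libraries had 19089, 16071 and 8990.5, spread across both of these ranges, and PCN libraries had 7741, 11614 and 6398. It rose 1.55-fold in HFD against Chow and fell 2.43-fold in PCN against HFD (adjusted p = 0.01277 and 4.72e-06 in the authors' deposited tables, 0.307 and 0.0751 in edgeR, the second with a range of 0.0367 to 0.322). The low end came from the TMM factors over the listed genes, and edgeR gave 0.0371 without PCN replicate 11. PCN against Chow was called as 1.56-fold lower (adjusted p = 0.04855 in the authors' deposited table and 0.473 in edgeR), though PCN replicate 11 lay above Chow replicate 17. Without HFD replicate 38 the fold between HFD and PCN was 2.46, and it ranged from 2.15 to 2.95 with any 1 library left out. PCN and vehicle overlapped and were not called (1.71-fold). Its annotated gene begins 162 bases from Slc25a29, whose HFD mean was 70.8 against 20825.

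Slc25a30 (ENSMUSG00000022003, chromosome 14, positions 75760117 to 75787037), an uncoupling-protein relative, had 852, 838 and 619 normalized counts in Chow and 714, 749.8 and 815 in HFD. Vehicle libraries had 421, 817 and 773, with replicate 15 low, and PCN libraries had 493, 445 and 568. It fell 1.51-fold in PCN against HFD and 1.53-fold in PCN against Chow (adjusted p = 0.01361 and 0.01232 in the authors' deposited tables, 0.116 and 0.0934 in edgeR). Slc25a46, an outer membrane protein of mitochondrial fission and lipid handling, had 1342, 1239 and 1371 in Chow and 1041, 1128 and 727 in HFD. Vehicle libraries had 1043.5, 1172 and 739 and PCN libraries 1009, 938 and 774, so that Chow was above all 9 others. PCN against Chow was the call, 1.45-fold lower (adjusted p = 0.008105 in the authors' deposited table and 0.0748 in edgeR). HFD and vehicle were 1.36-fold and 1.34-fold below Chow without a call. Chow counts of Slc25a46 were at hand only through the PCN call, so these ratios are description only. Slc25a14, Slc25a27, Slc25a34, Slc25a35, Slc25a45 and Slc25a53 had group means of 6.93 to 269 and no calls, and Slc25a35 had 0 counts in HFD replicate 38. For Slc25a35, 31.3% of the exon length overlaps Rangrf on the opposite strand.

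**Figure D2:**
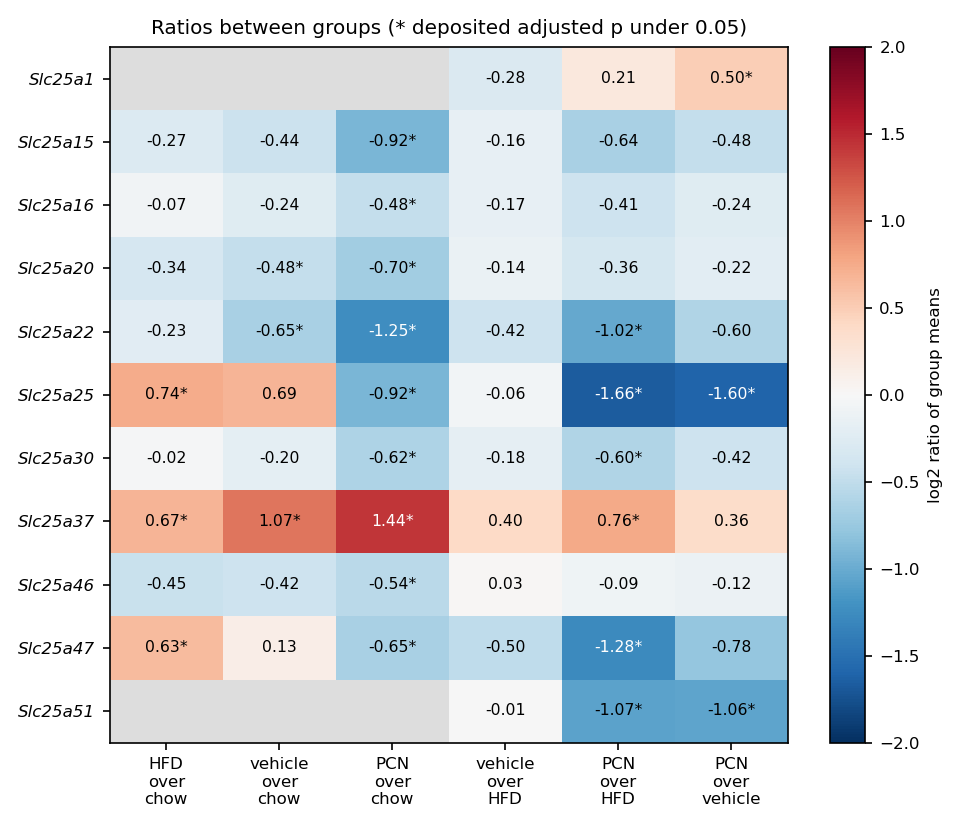
Log2 ratios of group means for the 11 called members (rows) in 6 comparisons (columns), red for a higher first group and blue for a lower one, with * for a deposited adjusted p under 0.05 and grey where Chow counts were not at hand. Ratios of PCN over HFD and over vehicle are negative for Slc25a25 (-1.66 and -1.60), Slc25a47, Slc25a51 and Slc25a22, and Slc25a37 is positive in all 6.

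Levels per kilobase of exons allow members to be set against each other. In HFD livers Slc25a47 came first with 6977 ± 731 normalized counts per kilobase, followed by Slc25a5 (5072 ± 348), Slc25a39 (2327 ± 172), Slc25a13 (1649 ± 311) and Slc25a10 (1626 ± 108). Slc25a13 and Slc25a10 do not differ beyond their spread. Slc25a1 came next with 1361 ± 120, and Slc25a15 had 1260 ± 492, within the spread of Slc25a1. With vehicle Slc25a47 (4930 ± 1740) and Slc25a5 (4349 ± 1020) were within each other's SD. The lowest members were Slc25a35 (2.94 ± 2.61), Slc25a53 (4.07 ± 0.764) and Slc25a27 (4.87 ± 1.80). The 41 members together made up 0.489%, 0.456% and 0.457% of all counts in HFD replicates 4, 30 and 38 and 0.402%, 0.392% and 0.306% in vehicle replicates 15, 23 and 55. Their summed normalized counts overlapped between the groups. In the same order they were 94353, 91021 and 77225 in HFD and 85275, 79413 and 62762 in vehicle libraries. The median coefficient of variation over members was 15.0% in HFD and 21.2% with vehicle, against 14.8% and 16.9% over all genes of a mean count from 10 up.

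**Figure D3:**
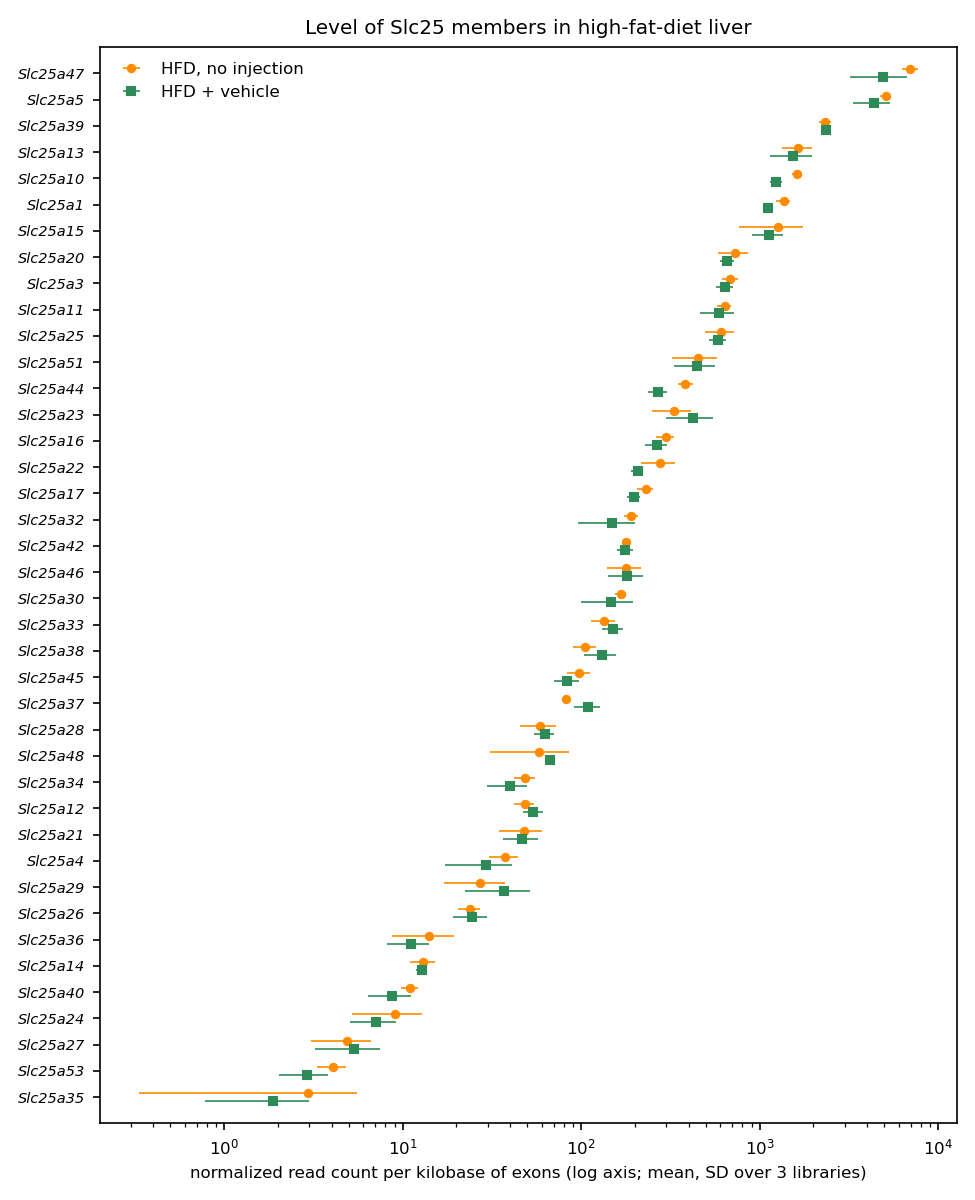
Mean normalized read count per kilobase of exons (log axis) of 40 members in HFD (circles) and HFD Vehicle (squares) libraries, with SD over 3 libraries as bars. Slc25a47, Slc25a5 and Slc25a39 lead at 6977, 5072 and 2327 in HFD, and Slc25a35 is last at 2.94.

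The complete table allowed all 41 members to be compared between vehicle and HFD. At an adjusted p of 0.05 edgeR passed 0 of 41 (it called 1 of 13775 genes, 0.00726%), with 4 members at an unadjusted p under 0.05, where 12.5% of all genes were. A DESeq2 refit also passed 0, with 4 at an unadjusted p under 0.05. The members' median log2 ratio was -0.12 (all genes 0.02), 28 members were below 0 and 13 above, and 38 lay within 0.5 of 0. The groups did not overlap for 5 members (Slc25a1, Slc25a10, Slc25a17 and Slc25a44 lower, Slc25a37 higher), where 19.5% of genes with a mean count from 10 up did not overlap, 9.89% lower and 9.6% higher. By role, the median log2 ratio was -0.23 over 9 phosphate and nucleotide carriers and -0.12 over 7 carboxylate and aspartate carriers. It was -0.03 over 9 carnitine and cofactor carriers, 0.24 over the 2 iron carriers and -0.23 over 9 unassigned members. Over the 5 members of the amino acid group it was 0.19, the value of Slc25a48, reported elsewhere as a choline carrier. The estimates of Slc25a44 (-0.52 ± 0.13, SE), Slc25a22 (-0.42 ± 0.17), Slc25a10 (-0.40 ± 0.13) and Slc25a37 (0.40 ± 0.15) lay farthest from 0 in units of their standard error.

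**Figure D4:**
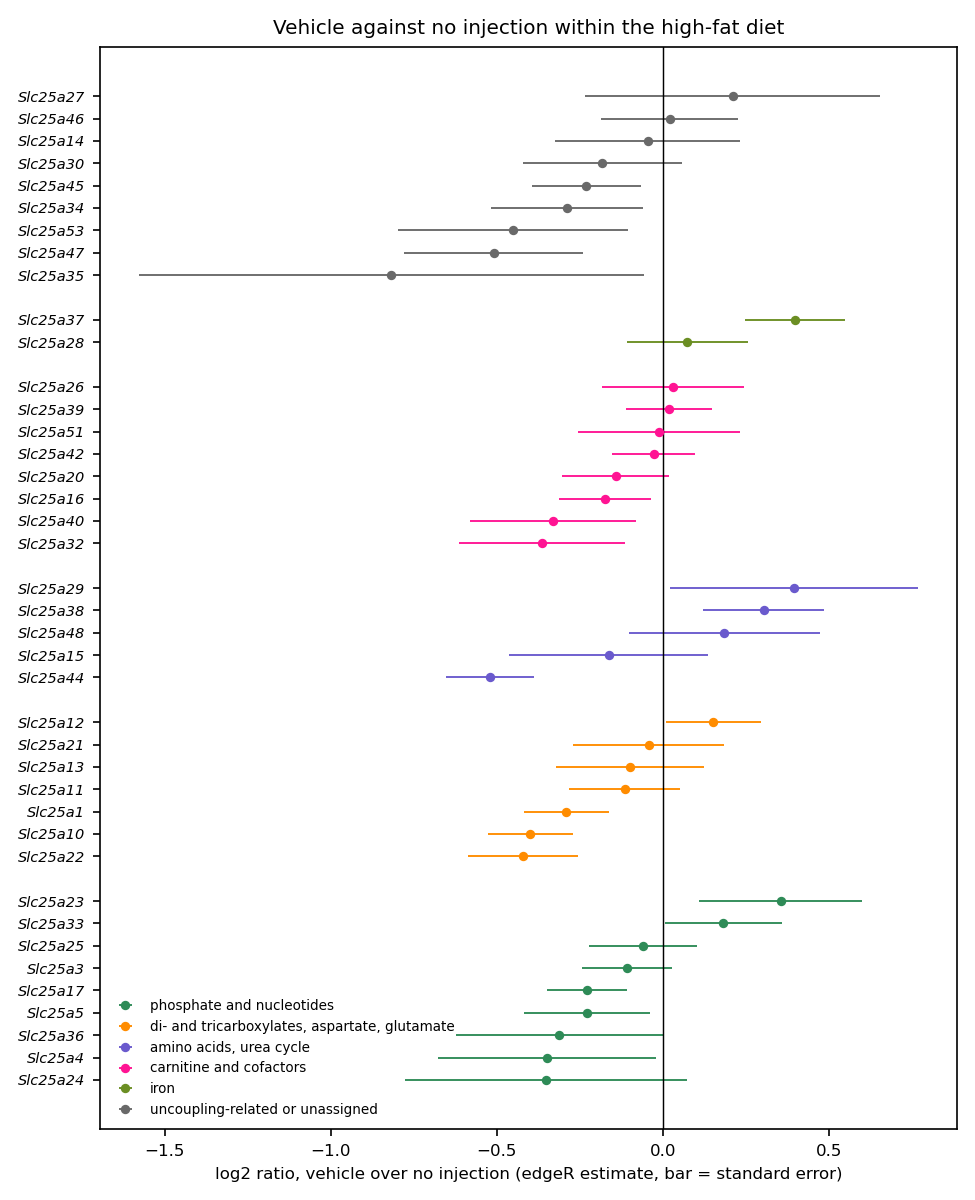
Log2 ratio of HFD Vehicle over HFD for 40 members, grouped by role and coloured by group, as the edgeR estimate (point) with its standard error (bar). Points run from -0.82 (Slc25a35, with a wide bar) to 0.40 (Slc25a37), and 28 of 40 lie left of 0.

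Enzymes and transporters that work with these carriers were read in the same tables. Around citrate export, 3 of 13 genes rose and 1 fell in PCN against vehicle. There 1.07% of all genes rose and 0.641% fell, and 3.09% of those with a mean count from 10 up were called. Acly, which splits citrate in the cytosol, rose 1.46-fold, Fasn (fatty acid synthase) 2.24-fold and Me1 (malic enzyme) 1.69-fold, and Pcx, the pyruvate carboxylase of the matrix, fell 1.50-fold. In vehicle against HFD 3 of the 13 fell (Acacb, Fasn and Me1) and 0 rose, with edgeR adjusted p of 0.14 to 0.246. That comparison called 0.792% of all genes and 1.48% of those with a mean count from 10 up. Slc25a1 was not called there (adjusted p = 0.7935 in the authors' deposited table and 0.405 in edgeR). Each of these PCN-to-vehicle values had an edgeR adjusted p of 0.239 to 0.423.

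Around the acylcarnitine carrier, 7 of 11 genes of carnitine metabolism and fatty acid oxidation fell in PCN against Chow and 0 rose, where 3.67% of all genes fell. In that comparison 14.2% of genes with a mean count from 10 up were called in either direction. Acsl1, which activates fatty acids, fell 2.53-fold, Crat (carnitine acetyltransferase) 1.88-fold and Etfdh, which passes electrons on to ubiquinone, 1.87-fold. The edgeR test passed these 3 (adjusted p = 0.0178, 0.0127 and 0.0257) and not the other 4 (0.0739 to 0.237). In vehicle against Chow 5 of the 11 fell, of which edgeR passed Crat (0.0451), and in HFD against Chow 2 fell (Crat and Acsl1; edgeR 0.211 and 0.406). Of 8 urea cycle enzymes Cps1 (1.68-fold) and Ass1 (1.94-fold) fell in PCN against Chow (edgeR adjusted p = 0.176 and 0.258). Of 7 malate-aspartate and glutamate enzymes Got1 (2.71-fold), Glud1 (1.38-fold) and Gls2 (1.81-fold) fell there and Gpt rose 1.46-fold, and edgeR passed Got1 (adjusted p = 0.0436; the others 0.0886 to 0.414). Of 6 hepatocyte markers Alb, Ttr and Cps1 (also counted above) fell in the same comparison (Alb 2.15-fold, to 710300 ± 245000), and 0 rose. The edgeR test passed none of the 3 (adjusted p from 0.108 to 0.225). In PCN against HFD Ttr fell 1.85-fold and Serpina1a rose 1.58-fold. In HFD against Chow Apoa1 and Serpina1a fell, and edgeR passed none of these calls either. No hepatocyte marker was called in PCN against vehicle, vehicle against Chow or vehicle against HFD. The part of hepatocyte marker changes in the 8 member falls against Chow was not tested.

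Of 16 ATP synthase genes the inhibitor Atpif1 rose in HFD and PCN livers against Chow (1.72-fold and 2.21-fold; edgeR adjusted p = 0.171 and 0.023), and 0 of 8 regulators of mitochondrial biogenesis were called in any of the 6 authors' deposited DESeq2 tables. Of 22 other mitochondrial transporters Mpc1, a subunit of the pyruvate carrier, rose 1.25-fold and Micu2, a regulator of the calcium uniporter, 1.35-fold in HFD against Chow (edgeR adjusted p = 0.522 and 0.228). These were 9.09% of the 22, where 4.85% of all genes and 8.78% of those with a mean count from 10 up were called. Slc8b1, the sodium-calcium exchanger of mitochondria, fell 1.68-fold in PCN against vehicle (edgeR 0.137), and Abcb8 rose 1.35-fold in PCN against Chow (0.0818). Ucp2, a family member outside the naming pattern, rose 1.61-fold in HFD against Chow (649 ± 26.4 against 403.5 ± 79.2) and fell 1.64-fold in PCN against HFD (edgeR 0.132 and 0.225). Ucp1 and Ucp3 had at most 2.26 normalized counts in any of the 6 complete libraries.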

How the data were processed

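Liver RNA-seq of 12 libraries in 4 groups was analysed. Per the submitters' processing notes, HISAT2, HTSeq, DESeq2 and GRCm38/mm10 were used; their versions, the strand setting and the annotation are not given in the sources used here. Raw read counts were deposited by the authors in 6 pairwise tables, with size-factor-scaled means, and DESeq2 log2 fold changes and p-values, per the file headers. One table is complete, and the other 5 hold called genes only. Deposited log2 changes are moderated, so ratios of group means are given.

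The authors' size factors were solved for from the counts and the deposited means, and put on 1 scale (largest difference 0.511%). The complete table was tested with edgeR 4.0.16 in R 4.3.3 (TMM, expression filter, 13775 genes, Benjamini-Hochberg). DESeq2 1.42.0 was an alternative. For the other tables the deposited calls are the main result, and edgeR was run on the listed counts with the dispersion of the complete table, adjusted over the number of genes tested, estimated from the deposited p-values (25100 to 25880). On data simulated for vehicle against HFD (13837 genes) edgeR recovered 50 of 100 genes changed 2-fold and 97 of 100 changed 4-fold, with 4 false calls.

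Named with values in every library are members called in any table, the 5 highest per kilobase in HFD, and the 10 with the largest vehicle log2 ratio, except for a result that is not reported here. Exon lengths and overlaps come from GENCODE, which placed 36 of the 41 members at the deposited coordinates. Promoters are from RefSeq. Members, lists and roles were chosen with earlier results of these data known. With 3 libraries per group an exact permutation test cannot go below 0.1. Tests were two-sided.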

Additional observations from a re-analysis of the deposited data

How the results depend on the processing

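No paired analysis was possible because the replicate numbers differ between all groups. With edgeR in place of the deposited calls, called members went from 3 to 0 in HFD against Chow, 3 to 0 in PCN against vehicle, 6 to 1 in PCN against HFD, 3 to 1 in vehicle against Chow and 9 to 4 in PCN against Chow. At an adjusted p of 0.01 the deposited tables kept 1 in HFD against Chow and 1 in vehicle against Chow. TMM factors over the listed genes gave edgeR counts of 1 in PCN against vehicle and 4 in PCN against HFD. Leaving out 1 library at a time gave edgeR counts of 0 to 1 in PCN against vehicle (1 without PCN replicate 5), 0 to 1 in PCN against HFD (0 without HFD replicate 4, 30 or 38 or PCN replicate 27), 0 to 0 in vehicle against Chow, 0 to 2 in PCN against Chow (2 without PCN replicate 11), and 0 in HFD against Chow and in vehicle against HFD. Each such fit has fewer libraries and residual degrees of freedom.

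Leaving out 1 library at a time, the ratio of vehicle to HFD crossed 1 for 7 named members, none of them called in that comparison. It ranged from 0.822 to 1.07 for Slc25a13 (above 1 without vehicle replicate 55), 0.729 to 1.02 for Slc25a15 (HFD 30), 0.898 to 1.07 for Slc25a25 (above 1 without vehicle 55 or HFD 30), 0.786 to 1.05 for Slc25a30 (vehicle 15), 0.983 to 1.06 for Slc25a39 (below 1 without HFD 38), 0.908 to 1.15 for Slc25a46 (below 1 without vehicle 15 or 23 or HFD 38) and 0.869 to 1.16 for Slc25a51 (above 1 without vehicle 55 or HFD 30). With TMM it was 0.995 for Slc25a39 and 0.999 for Slc25a46. The PCN-to-vehicle ratio of Slc25a1 was 0.993 with TMM. Of 308 alternative ratios 288 kept their direction and moved by less than the spread between replicates, 6 moved by more and 14 changed direction; apart from the Slc25a1 scaling the causes were not tested. The members' median log2 ratio between vehicle and HFD stayed between -0.21 and -0.07 over the alternatives. A minimum mean count of 50 gave 36 members and a minimum of 1 gave 46. Depth limits the low members: HFD replicate 38 held 7466378 counts.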
